A study of Mus musculus with 8 samples.

Results

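The genes described here are the 10 of the mouse small-RNA silencing machinery named by symbol: the Argonautes Ago1, Ago2, Ago3 and Ago4, the GW182 scaffold genes Tnrc6a, Tnrc6b and Tnrc6c, the helicase gene Mov10, and the microRNA processing nucleases Dicer1 and Drosha. They were taken by symbol through GENCODE M21, and each matched 1 of the 38293 Ensembl identifiers in the count table. All 10 passed the filter on low counts and were among the 13336 genes tested. Poly(A) RNA came from the left ventricle of untreated C57BL/6 males aged 8 weeks, with 4 hearts from wild-type (WT) mice and 4 from mice with a knockout of mORF4/NBDY (KO), and 1 library per heart. Nbdy encodes a microprotein that binds Edc4 in the mRNA decapping complex. How the KO allele was made, and whether the mice were littermates, is not given in the labels. Each library is a separate heart, so the spread within a group holds both animal and library variation.

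In the microRNA pathway Drosha trims the primary transcript in the nucleus, and Dicer cuts the exported hairpin into a short duplex. One strand is loaded into an Argonaute protein, which finds target mRNAs by base pairing. A Tnrc6 protein then bridges Argonaute to the deadenylase complexes, after which decapping enzymes remove the cap. Argonaute, Tnrc6 and Mov10 proteins are found in processing bodies (P-bodies), the cytoplasmic granules that also hold the decapping complex. In heart muscle, loss of Dicer or of single muscle microRNAs is known to disturb growth and contraction.

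Total counts ran from 11101901 to 14699949 per library. The members had between 95 counts (Ago4 in WT replicate 2) and 1578 counts (Tnrc6a in KO replicate 6). As a check of the genotype labels, WT replicates 1 to 4 gave 241, 208, 246 and 248 counts of Nbdy, and KO replicates 5 to 8 gave 137, 135, 133 and 115. Every KO heart lay below every WT heart, with a log2 fold change of -0.97 ± 0.11 (SE), an adjusted p of 0.0060 by edgeR's quasi-likelihood test and one of 0.0562 when KO replicate 6 was left out. All 8 markers of ventricular muscle were detected, with a summed level of 64438 to 78032 CPM (counts per 1000000 of the TMM-scaled library size) in WT and 67760 to 79749 CPM in KO. In WT replicate 1 mitochondrially encoded transcripts took 29.2% of counts, against 19.4% to 19.9% in the other WT hearts and 23.0% to 26.7% in the KO hearts.

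No member passed an adjusted p of 0.05 between genotypes. In edgeR 0 of 10 passed, where 0.0225% of all genes tested did, and DESeq2 and limma-voom also called 0. At an unadjusted p under 0.05 there was 1 member, Ago1, against 6.4% of all genes tested, and 3.5% of genes were below that level and higher in KO. Without WT replicate 1 there were 3 members, Ago1, Tnrc6c and Mov10, against 10.7% of all genes then tested. Ago1 averaged 1.35-fold the WT level in KO, and the other 9 members lay between 0.959-fold and 1.21-fold. Of the 10 log2 fold changes 8 were positive, beside 49.4% over all genes, and 7 were positive with library totals in place of TMM, where Tnrc6a turned to -0.01. Their median was 0.10, and the median over all genes tested was -0.0032. With a trend on GC content and length removed per library the members' median was 0.038, and without WT replicate 1 it was 0.159. In 0 of 10 members did the groups fail to overlap, against 4.12% of all genes tested. The 95% intervals of the 10 fold changes together ran from 0.797 (Dicer1) to 1.71 (Ago1), so changes beyond those sizes lay outside every interval.

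**Figure D1:**
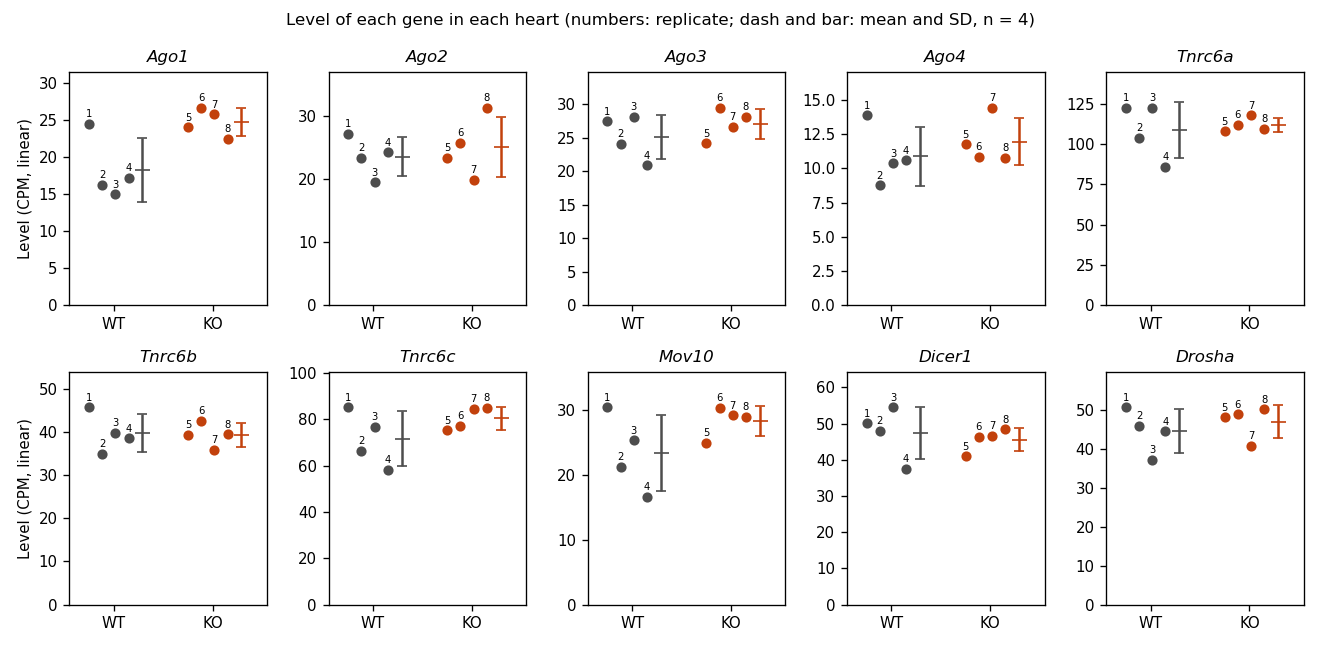
Level of each of the 10 genes in each heart, in CPM on a linear axis from 0, with WT in grey and KO in orange, the replicate number above each point, and the mean and SD of each group beside it (n = 4). In Ago1 3 WT hearts (14.9 to 17.2 CPM) lie below all 4 KO hearts (22.4 to 26.6 CPM) while WT replicate 1 lies among them at 24.5 CPM. Ago4 has the same layout with a smaller gap (10.6 against 10.8 CPM).

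**Figure D2:**
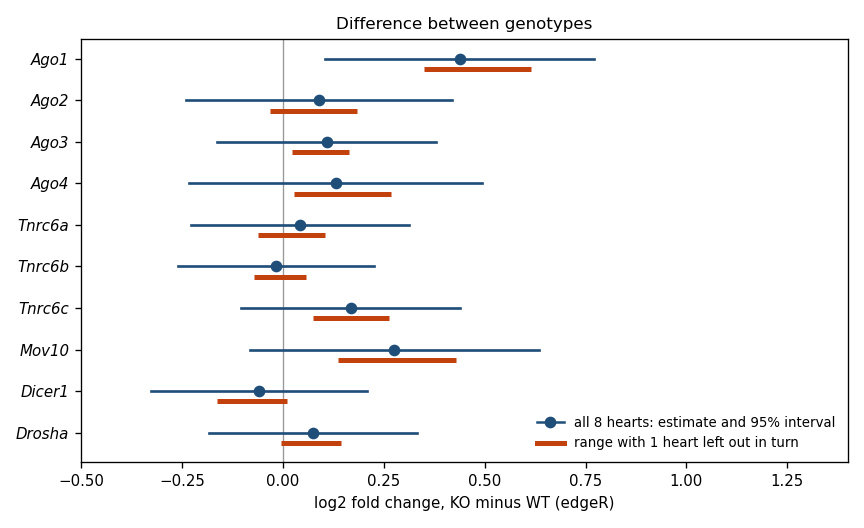
Log2 fold change of KO minus WT for each gene from edgeR, with its 95% interval in blue, and in orange the range of the estimate when 1 heart was left out in turn. The interval of Ago1 (0.10 to 0.77) does not include 0, and those of the other 9 genes do.

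The Argonautes are the proteins that hold the small RNA. In mammals Ago2 is the paralog that cuts a fully matched target efficiently, and the slicing site of its PIWI domain is built from a catalytic tetrad of charged residues. Ago1, Ago3 and Ago4 lie next to each other on the minus strand of chromosome 4 in GRCm38, at 126435012 to 126468583, 126331704 to 126429556 and 126489541 to 126533472. Ago2 lies alone on the minus strand of chromosome 15, at 73095844 to 73184935. The coding sequences of the 4 genes are 71.6% to 75.6% identical in aligned bases, and the encoded residues 79.0% to 85.7%.

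The stretches that code for the last tetrad residue of Ago2, its histidine, and for the aligned codons of the other genes are shown because they set the paralogs apart and because reads are counted per paralog. Each is 27 coding bases from GENCODE M21 transcripts (GRCm38, 5′ to 3′ on the transcript), and the capitals mark the aligned codon, which is codon 805, 808, 808 and 809 of Ago1 to Ago4.
Ago1: gcctactatgctCGCttggtggctttc
Ago2: gcttactatgctCACctggtggccttc
Ago3: gcatattacgctCACctggtggcattc
Ago4: gcatattatgccCGGcttgtggcattc
The capitals are histidine codons in Ago2 and Ago3 and arginine codons in Ago1 and Ago4. These bases lie at chr4:126439880-126439906 in exon 18 of Ago1, chr15:73107203-73107229 in exon 18 of Ago2, chr4:126346669-126346695 in exon 18 of Ago3 and chr4:126496787-126496813 in exon 17 of Ago4, all on the minus strand. A further tetrad position, the second aspartate of Ago2, sets Ago4 apart from the other genes, again with the aligned codon in capitals.
Ago1: atcttctaccgcGACggcgtccccgag
Ago2: atcttctaccgcGATggcgtctccgag
Ago3: atcttctatcggGATggtgtttcagaa
Ago4: atctactaccgcGGAggggtatccgag
Ago4 has a glycine codon there and the other genes an aspartate codon. These windows lie in exon 15 of Ago1, Ago2 and Ago3 and in exon 14 of Ago4, at chr4:126441904-126441930, chr15:73113723-73113749, chr4:126350870-126350896 and chr4:126507026-126507052. The remaining catalytic residues, an aspartate and a glutamate, are encoded in all 4 genes.

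Few long stretches are shared with other genes. Of the 50-base windows in Ago1 transcripts, 1.53% also occurred in a transcript of another gene, and 121 of those 125 windows were shared with Ago3. The share was 3.46% for Ago2, 0.731% for Ago3 and 0.29% for Ago4. In Ago2, 257 shared windows belonged to the processed pseudogene Gm6088, which had 0 counts in every library, and 173 to Chrac1, which overlaps the 3′ end of Ago2 on the opposite strand. Chrac1 averaged 39.9 ± 3.70 CPM for WT hearts and 42.4 ± 2.56 CPM for KO hearts (SD over 4 hearts), and the strand setting of the counting is not given in the sources used here. How much of the Ago2 count comes from Chrac1 reads was not tested. Within the bounds of Ago4 lie the processed pseudogenes Gm12935 and Gm12934, with 0 and at most 1 count per library.

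Ago1 encodes an Argonaute that slices poorly and silences through the Tnrc6 proteins. Its level in WT replicates 1 to 4 was 24.5, 16.2, 14.9 and 17.2 CPM, and KO replicates 5 to 8 stood at 24.0, 26.6, 25.7 and 22.4 CPM. WT replicate 1 lay within the range of the KO hearts, and the other 3 WT hearts lay below all of them. The WT mean was 18.2 ± 4.28 CPM and the KO mean 24.7 ± 1.87 CPM (SD over 4 hearts), and the estimated log2 fold change was 0.44 ± 0.15 (SE, 95% interval 0.10 to 0.77, adjusted p = 0.725 in edgeR). The gene ranked 259th of 13336 by p. Its log2 fold change stayed between 0.35 (without WT replicate 3) and 0.61 (without WT replicate 1) over 18 alternative fits, and its adjusted p between 0.195 and 0.968. The smallest of these, 0.195, was reached without WT replicate 1.

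Ago1 and the mitochondrial share of the library were high in the same hearts. The 3 hearts with a mitochondrial share of 19.4% to 19.9%, WT replicates 2 to 4, held 14.9 to 17.2 CPM of Ago1, and the 5 hearts with 23.0% to 29.2% held 22.4 to 26.6 CPM. Ago4 split between the same hearts with a smaller gap, at 8.76 to 10.6 CPM in those 3 and 10.8 to 14.4 CPM in those 5. The Ago4 gap lay between WT replicate 4 (138 counts) and KO replicate 8 (123 counts), so it rests on few reads. The share of all genes tested that split between these hearts was not computed, so neither split is read as particular to its gene. With mitochondrially encoded genes removed before scaling the log2 fold change of Ago1 was 0.44, as in the full table. That step only drops their rows and rescales the rest, so it cannot show whether the split matters. With the GC content and length trend removed it was 0.36 (adjusted p = 0.928 in edgeR), and with 1 surrogate variable 0.37 (adjusted p = 0.761 in edgeR). The hearts fall into separate clusters, so no correlation is given. The part of RNA quality or tissue composition in the Ago1 and Ago4 values was not tested.

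**Figure D3:**
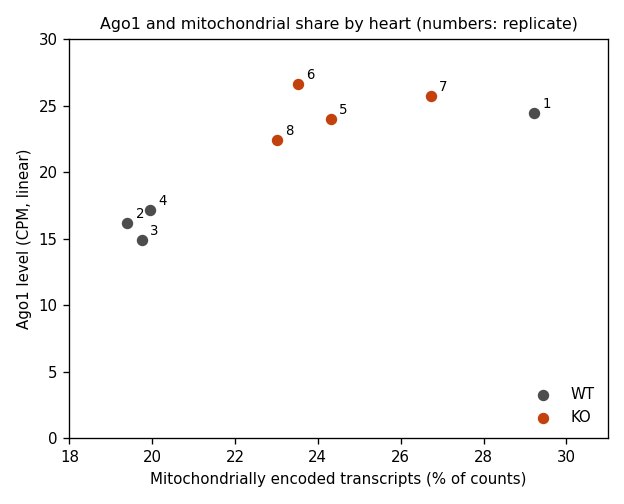
Ago1 level in CPM (linear axis from 0) against the percentage of counts from mitochondrially encoded genes, 1 point per heart with its replicate number, WT in grey and KO in orange. WT replicates 2 to 4 form a group at low mitochondrial share and low Ago1, and WT replicate 1 lies with the 4 KO hearts in Ago1 level.

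Ago2, the slicing Argonaute, stood at 27.2, 23.4, 19.5 and 24.3 CPM in the WT hearts in replicate order. In the KO hearts it stood at 23.4, 25.8, 19.9 and 31.3 CPM. KO replicate 8 was the highest heart of either group and KO replicate 7 was near the lowest, so the groups overlapped over most of their range. The log2 fold change was 0.09 ± 0.15 (SE, 95% interval -0.24 to 0.42, adjusted p = 0.932 in edgeR), and without KO replicate 8 it was -0.03.

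Ago3, whose protein keeps the tetrad codons but slices poorly, had 27.5, 24.1, 28.1 and 20.9 CPM among the WT hearts, and the KO hearts had 24.1, 29.4, 26.7 and 28.1 CPM. Ago4, whose protein lacks 2 of the tetrad residues, was the least abundant member by CPM, at 13.9, 8.76, 10.4 and 10.6 CPM for WT, while KO hearts gave 11.8, 10.9, 14.4 and 10.8 CPM. In Ago4 WT replicates 2 to 4 lay below all KO hearts, and WT replicate 1 lay among them. Ranges of WT and KO overlapped for both genes. Their log2 fold changes were 0.11 ± 0.13 for Ago3 and 0.13 ± 0.17 for Ago4 (SE, adjusted p of 0.896 and 0.907 in edgeR). Leaving out WT replicate 4 gave 0.02 for Ago3, and leaving out WT replicate 3 gave 0.16. For Ago4 the lowest such value was 0.03, when KO replicate 7 was left out, and the highest 0.27, when WT replicate 1 was. The protein-coding genes that flank the chromosome 4 cluster showed no difference that passed: Tekt2, beside Ago3, stood at -0.10 ± 0.32, and Clspn, beside Ago4, at 0.29 ± 0.49, both from few counts (13 to 38 and 3 to 17 per library).

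Levels of different genes were compared per kilobase of annotated exon. On this scale Ago1 was the most abundant Argonaute, with a WT mean of 2.24 ± 0.527 CPM per kb and a KO mean of 3.04 ± 0.230 (SD over 4 hearts), and it exceeded Ago2 in 8 of 8 hearts. Ago2 (WT 1.68 ± 0.226, KO 1.79 ± 0.341), Ago4 (WT 1.57 ± 0.310, KO 1.72 ± 0.247) and Ago3 (WT 1.52 ± 0.201, KO 1.63 ± 0.137) lay close together, with overlapping ranges. Of the summed Argonaute level, WT replicates 1 to 4 drew 35.0%, 31.3%, 28.7% and 31.9% from Ago1, and KO replicates 5 to 8 drew 38.0%, 38.7%, 38.3% and 33.5%. KO replicate 8 was below WT replicate 1, so the groups overlapped in this share. The share of Ago2 was 21.7% to 26.2% in WT and 17.2% to 27.1% in KO. The count of Ago1 divided by that of Ago2 in the same heart was 0.8997, 0.693, 0.766 and 0.709 for the WT hearts, against 1.02, 1.03, 1.29 and 0.715 for the KO hearts, and KO replicate 8 was again the heart that lay among the WT values. By CPM, without scaling for length, Ago1 did not lead. Its WT mean was 18.2 CPM, against 23.6 for Ago2 and 25.1 for Ago3. Its KO mean was 24.7 CPM, against 25.1 for Ago2 and 27.1 for Ago3. The first place of Ago1 therefore rests on the annotated lengths.

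**Figure D4:**
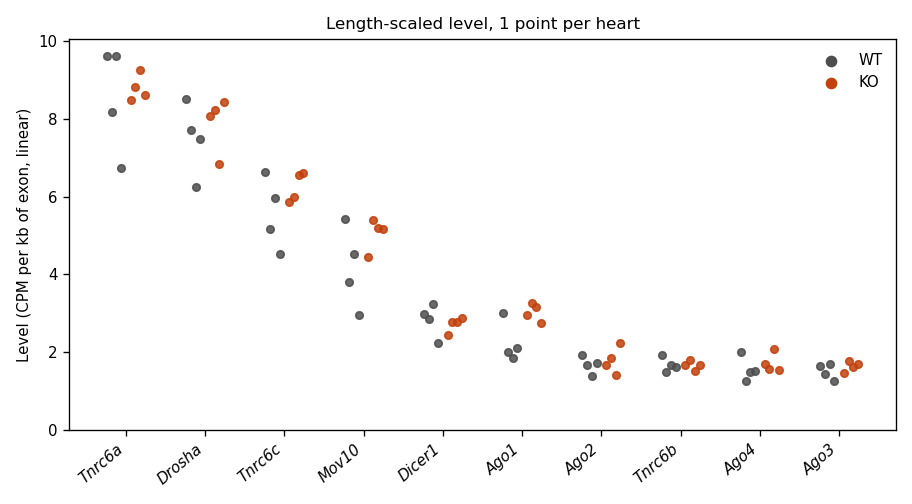
Level of each gene in CPM per kilobase of annotated exon, on a linear axis from 0, 1 point per heart (WT grey, KO orange), with genes ordered by their mean over the 8 hearts. Tnrc6a and Drosha stand highest, and the 3 Argonautes other than Ago1 stand with Tnrc6b at the low end.

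The Tnrc6 genes encode large proteins with glycine-tryptophan repeats that bind Argonaute at one end and recruit the PAN2-PAN3 and CCR4-NOT deadenylases at the other. Tnrc6a (chromosome 7, 123123885 to 123195296, plus strand) stood at 122, 104, 122 and 85.7 CPM in the WT hearts, in replicate order, while the KO hearts held 108, 112, 118 and 109 CPM. The 4 KO hearts all lay inside the WT range. The log2 fold change was 0.04 ± 0.12 (SE, 95% interval -0.23 to 0.31, adjusted p = 0.969 in edgeR), and it was -0.06 without WT replicate 4, the lowest heart.

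Tnrc6b (chromosome 15, 80711313 to 80941085, plus strand) held 45.8, 35.0, 39.9 and 38.6 CPM among WT hearts, against 39.3, 42.6, 35.9 and 39.5 CPM among KO hearts. Every KO heart lay inside the WT range here too. This was the member with the narrowest interval, from -0.26 to 0.23 on the log2 scale around -0.02 ± 0.11 (SE, adjusted p = 0.984 in edgeR). Its sign turned without WT replicate 1 (0.06) and without KO replicate 7 (0.02).

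Tnrc6c (chromosome 11, 117654289 to 117763439, plus strand) held 85.2, 66.3, 76.6 and 58.1 CPM among WT hearts, against 75.2, 77.1, 84.4 and 84.9 CPM among KO hearts. WT replicates 2 and 4 lay below all KO hearts, and WT replicate 1 above all of them. The KO hearts stood 0.17 ± 0.13 above WT on the log2 scale (SE; edgeR adjusted p = 0.818). Without WT replicate 1 it was 0.26 (adjusted p = 0.466, the smallest of a range up to 0.976 over the 18 alternative fits), without WT replicate 4 it was 0.07 (adjusted p = 0.903), and with the GC content and length trend removed 0.07 (adjusted p = 0.973).

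By length-scaled level Tnrc6a made up 51.0% to 55.7% of the 3 paralogs over the 8 hearts, Tnrc6c 34.5% to 39.1% and Tnrc6b 8.74% to 12.6%. The order Tnrc6a, Tnrc6c, Tnrc6b held in each heart, since the ranges of the shares did not overlap. The share of Tnrc6c averaged 35.2 ± 0.849% for WT hearts, against 37.4 ± 1.37% for KO hearts (SD over 4 hearts), and 1 KO heart lay below the highest WT heart. The coding sequences are 55.4% to 57.4% identical in aligned bases, and the paralogs share 0 windows of 50 bases. The lincRNA gene Gm45846 overlaps Tnrc6a on the same strand, and Gm49512 and Mir5113 lie within Tnrc6b. Mir5113 had 0 counts, and Gm45846 and Gm49512 have no row in the count table.

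Mov10 encodes an RNA helicase that associates with Argonaute and is also known to be induced by interferon and to restrict retroelements. It lies on the minus strand of chromosome 3, at 104794836 to 104818563. The WT hearts held 30.4, 21.3, 25.3 and 16.6 CPM in replicate order, and the KO hearts 24.99, 30.3, 29.2 and 29.0 CPM. WT hearts spanned the widest relative range of any member, with a coefficient of variation of 25.2% against 8.19% in KO, and WT replicate 1 lay above all KO hearts. The log2 fold change was 0.28 ± 0.17 (SE, 95% interval -0.08 to 0.63, adjusted p = 0.797 in edgeR), 0.43 without WT replicate 1 (adjusted p = 0.341, the smallest of a range up to 0.968 over the 18 alternative fits) and 0.14 without WT replicate 4. Of the 50-base windows of Mov10, 5.22% also occur in the processed pseudogene Gm7357.

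Among 23 interferon-stimulated genes 0 passed in edgeR, in either direction, with 13 positive and 10 negative values, a median of 0.07 and 1 gene at an unadjusted p under 0.05, Rsad2. Of all genes tested 6.4% lay below that level, so this count is not read as particular to the list. Rsad2, an antiviral enzyme, held 36.7, 25.99, 20.8 and 22.0 CPM among WT hearts, against 28.9, 39.6, 41.3 and 39.5 CPM among KO hearts (log2 fold change 0.50 ± 0.18, adjusted p = 0.726 in edgeR). Like Mov10 it was high in WT replicate 1. The summed level of the list was 514 to 715 CPM in WT and 518 to 753 CPM in KO, highest in WT replicate 1 and KO replicate 6, the hearts with most Mov10 in their groups. WT replicate 1 was also the highest WT heart for 8 of 10 members, and WT replicate 4 was the lowest WT heart in both the sum and Mov10. Other hearts did not match. KO replicate 8 had the lowest KO sum with 29.0 CPM of Mov10. WT replicate 2 had a higher sum than WT replicate 3 (557 against 538 CPM) and less Mov10. A link between the list and Mov10 was not tested. Xaf1 (-0.40 ± 0.28), Irf7 (0.38 ± 0.27) and Rtp4 (-0.22 ± 0.19) had the next smallest p and did not pass.

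The nucleases that make microRNAs showed small differences. Drosha, the nuclear enzyme (chromosome 15, 12824815 to 12935291, plus strand), stood at 50.6, 45.8, 37.1 and 44.5 CPM in the WT hearts, in replicate order, while the KO hearts held 48.0, 48.8, 40.6 and 50.1 CPM. All KO hearts lay within the WT range, and the log2 fold change was 0.08 ± 0.12 (SE, 95% interval -0.18 to 0.33, adjusted p = 0.927 in edgeR). Dicer1, the cytoplasmic enzyme (chromosome 12, 104687742 to 104751952, minus strand), held 50.02, 47.9, 54.5 and 37.6 CPM among WT hearts, against 40.9, 46.3, 46.6 and 48.4 CPM among KO hearts. The KO hearts again lay within the WT range. Its log2 fold change of -0.06 ± 0.12 (SE, 95% interval -0.33 to 0.21, adjusted p = 0.950 in edgeR) was the lowest among the members. Without WT replicate 3 it was 0.01, and Drosha then stood at -0.01. The microRNA gene Gm47288 lies within Drosha on the same strand and has no row in the count table.

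Per kilobase of exon, Drosha was more abundant than Dicer1, with WT means of 7.50 ± 0.942 and 2.84 ± 0.428 CPM per kb and KO means of 7.90 ± 0.716 and 2.72 ± 0.192 (SD over 4 hearts). The ranges of these 2 genes did not overlap over the 8 hearts (6.25 to 8.52 and 2.24 to 3.25 CPM per kb). The count of Dicer1 divided by that of Drosha was 0.989, 1.046, 1.47 and 0.845 for the WT hearts, against 0.853, 0.949, 1.15 and 0.967 for the KO hearts, with WT replicate 3 the highest heart.

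Ordered by length-scaled level over all 8 hearts, the members ran Tnrc6a (8.67 CPM per kb), Drosha (7.70), Tnrc6c (5.91), Mov10 (4.62), Dicer1 (2.78), Ago1 (2.64), Ago2 (1.74), Tnrc6b (1.67), Ago4 (1.65) and Ago3 (1.58). Every pair of neighbours in that order had overlapping ranges. Within single hearts, Tnrc6a exceeded Drosha in 7 of 8, and Drosha exceeded Tnrc6c, Tnrc6c exceeded Mov10, Mov10 exceeded Dicer1 and Ago1 exceeded Ago2 in 8 of 8 hearts each. Dicer1 exceeded Ago1 in 4 of 8, Ago2 exceeded Tnrc6b in 6, Tnrc6b exceeded Ago4 in 5 and Ago4 exceeded Ago3 in 4. Exon length includes every annotated isoform, so the level of a gene with long, little-used exons is understated. With the longest annotated transcript as the length, Tnrc6a, Drosha, Mov10, Dicer1 and Tnrc6b stood higher by more than their spread, at 13.5, 9.996, 6.96, 4.72 and 2.28 CPM per kb, and the order changed: Mov10 passed Tnrc6c (6.55) and Tnrc6b passed Ago2 (1.77).

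The members varied more among the WT hearts than among the KO hearts. The coefficient of variation was larger in WT for 9 of 10 members, with Ago2 the exception (13.4% in WT and 19.1% in KO), and 65.1% of all genes tested were more variable in WT. The median coefficient was 15.6% in WT and 7.88% in KO over the members, beside 16.8% and 12.9% over all genes tested. WT replicate 1 was the highest WT heart in 8 of 10 members, and it was the highest for 27.0% of all genes tested. WT replicate 4 was the lowest WT heart for 5 members: Ago3, Tnrc6a, Tnrc6c, Mov10 and Dicer1. KO replicate 5 was the lowest KO heart for 5 members, Ago3, Tnrc6a, Tnrc6c, Mov10 and Dicer1, the same as those for WT replicate 4. Over all genes tested WT replicate 4 was the lowest WT heart for 23.6% and KO replicate 5 the lowest KO heart for 29.0%. The members are measured in the same libraries, so these counts are not independent of each other.

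**Figure D5:**
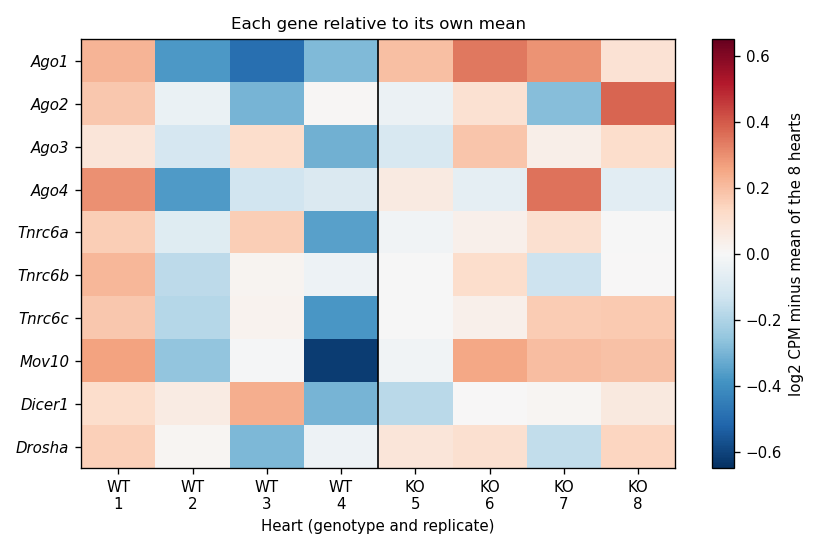
Each gene's log2 CPM minus its mean over the 8 hearts, with genes in rows and hearts in columns (WT left of the line, KO right). WT replicate 1 is above the mean for all 10 genes. WT replicate 4 is furthest below it for Mov10, and by less for Ago1, Ago3, Tnrc6a, Tnrc6c and Dicer1 among others.

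Over the 8 hearts, 39 of the 45 pairs of members had a positive Pearson's r of log2 CPM. The share over pairs of all genes tested was not computed, so this count is not read as particular to the members. After Benjamini-Hochberg adjustment over the 45 pairs 0 passed, by Pearson's r or by Spearman's rho. By Pearson's r 10 pairs had an unadjusted exact permutation p under 0.05. Values of r ran from -0.26 to 0.96. Tnrc6c and Mov10 had the highest r, 0.96 (exact two-sided permutation p = 0.0031, adjusted p = 0.0692), with rho = 0.90 (exact permutation p = 0.0046, adjusted p = 0.103). Within genotypes their r was 0.94, and without the 2 hearts farthest from the median of Tnrc6c it was 0.69 (exact permutation p = 0.172). Ago2 and Drosha had r = 0.88 (exact two-sided permutation p = 0.0019, adjusted p = 0.0692) and rho = 0.90 (exact permutation p = 0.0046, adjusted p = 0.103), with 0.88 within genotypes and 0.91 without the 2 hearts farthest from the median of Ago2 (exact permutation p = 0.025). Ago1 and Ago4, neighbours on chromosome 4, had r = 0.70 (exact permutation p = 0.038, adjusted p = 0.169) and rho = 0.83 (exact permutation p = 0.015, adjusted p = 0.173). Without the 2 hearts farthest from the median of Ago1, their r was 0.50 (exact permutation p = 0.244). Ago1 and Ago3, also neighbours on chromosome 4, had r = 0.42 (exact permutation p = 0.334). Ago3 and Ago4 of the same cluster had r = 0.26 (exact permutation p = 0.565).

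The gene outside the set most like each member over the 8 hearts was sought among 10294 genes of at least 5 CPM. Wipf2 was most like Ago1 (r = 0.98), Ofd1 like Ago2 (0.94), Btbd3 like Ago3 (0.95) and Ggta1 like Ago4 (0.97). Ccnt2 was most like Tnrc6a (0.998), Atxn7l2 like Tnrc6b (0.95) and Golgb1 like Tnrc6c (0.99). Ppfia1 was most like Mov10 (0.997), Rbm48 like Dicer1 (0.99) and Tmem62 like Drosha (0.94). Between 6 (Ago2) and 65 (Mov10) genes had an r above 0.9 with a member. These values describe 8 libraries that share depth and composition, and each is the highest of 10294, so no p is given.

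Other genes of the microRNA pathway showed no difference that passed. Of 58 genes, among them cofactors of Drosha and Dicer, export and loading factors, tailing enzymes, decay factors and the germline Piwi genes, 50 were tested and 0 passed in edgeR (27 positive, 23 negative, median 0.01), with 2 at an unadjusted p under 0.05, both positive. Zswim8, the substrate receptor of the ubiquitin ligase that removes Argonaute in target-directed microRNA degradation, had the smallest p of the list. The WT hearts held 76.2, 59.9, 74.2 and 63.6 CPM in replicate order, and the KO hearts 107, 100.3, 92.6 and 80.6 CPM. All KO hearts lay above all WT hearts, and they stood 0.48 ± 0.12 higher on the log2 scale (SE; edgeR adjusted p = 0.652). Ddx17, a helicase of the Drosha complex, stood at 0.31 ± 0.13, the P-body helicase gene Ddx6 at -0.24 ± 0.11 and the deadenylase gene Cnot7 at -0.27 ± 0.13 (adjusted p of 0.772, 0.777 and 0.777 in edgeR). Groups did not overlap for 2 of the 50 genes, 1 in each direction. Over all genes tested 4.12% did not overlap and 6.4% had an unadjusted p under 0.05, so both counts lie near or below the background.

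Genes whose bounds hold a microRNA locus were listed as well, since Drosha acts on the primary transcripts of such loci. Of 45 such host genes 40 were tested and 0 passed in edgeR (22 positive, 18 negative, median 0.02), with 3 at an unadjusted p under 0.05. Those 3 were higher in every KO heart than in any WT heart. Over all genes tested 6.4% had an unadjusted p under 0.05 and 4.12% did not overlap in either direction, so counts of 3 among 40 genes are not read as particular to the list. Dnm2, a dynamin gene that has a miR-199a locus on its opposite strand, held 78.0, 73.5, 73.7 and 80.02 CPM among WT hearts, against 101, 102, 95.9 and 89.3 CPM among KO hearts (log2 fold change 0.35 ± 0.10, adjusted p = 0.711 in edgeR). Mcm7, a replication helicase gene that hosts the miR-106b cluster, stood at 0.42 ± 0.13, and Slit3, which hosts a miR-218 copy, at 0.57 ± 0.21 (adjusted p of 0.711 and 0.726 in edgeR). Huwe1, a ubiquitin ligase gene, stood at 0.25 ± 0.13 and its groups overlapped. Mature microRNAs are not measured by poly(A) libraries.

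Markers of other cell types were read beside these values, since in bulk tissue fewer cells of a type and less RNA per cell cannot be told apart. All 8 fibroblast markers were negative (median -0.21), with a summed level of 1099 to 1405 CPM in WT and 902 to 1170 CPM in KO. The 7 blood markers summed to 831 to 1811 CPM in WT and 1165 to 2171 CPM in KO, and 6 of them were positive. Summed endothelial markers (8 genes) lay at 2765 to 3198 CPM in WT and 2480 to 3083 CPM in KO, smooth muscle and pericyte markers (7 genes) at 965 to 1198 and 743 to 1383 CPM, and macrophage markers (8 genes) at 164 to 254 and 174 to 265 CPM. The 6 lymphocyte markers summed to 3.45 to 5.23 CPM in WT and 2.80 to 4.00 CPM in KO. The 4 atrial markers summed to 264 to 481 CPM in WT and 457 to 713 CPM in KO, most of it Nppa (WT 400.2 ± 96.4, KO 601.2 ± 123 CPM, SD over 4 hearts). Myl4, the other atrial marker tested, held 5.10 ± 1.39 CPM in WT and 5.07 ± 2.14 CPM in KO. Groups did not overlap for the fibroblast marker Dcn and the macrophage marker Mrc1, both lower in KO, nor for 1 lymphocyte marker under the filter on low counts, higher in KO, beside 4.12% of all genes tested. Of the 8 macrophage markers 3 were positive and 5 negative. No marker of any list was at 0 in all libraries, no marker tested passed in edgeR, and the part of cell composition in the values of the members was not tested.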

How the data were processed

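The deposited data are raw read counts, whole numbers per Ensembl gene, in 1 table with a column for each heart, matched by name. The kit was Illumina's stranded mRNA kit, per the labels' protocols. The submitters' processing notes name STAR 2.7.1a and GRCm38 (mm10). For the counting tool, its annotation and its handling of strand: not given in the sources used here. GENCODE M21 (GRCm38) supplied symbols for 36429 of 38293 identifiers, positions, exon lengths and transcript sequences.

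The filter was filterByExpr with a minimum count of 10, the scaling TMM, and the test that of edgeR 4.0.16 (quasi-likelihood F test, two-sided, genotype as the sole term; R 4.3.3), with Benjamini-Hochberg adjustment over 13336 genes. Each SE was derived from the F statistic, and 95% intervals from the fit's degrees of freedom. All 28 pairs of libraries differed beyond sampling noise (chi-square divided by its degrees of freedom, 10.8 to 55.5), so each counted as 1 sample. Simulated data for KO against WT held 200 changed genes (13190 genes run). Recovery was 28.4% of 81 genes changed 1.5-fold, 70.1% of 67 changed 2-fold and 97.8% of 46 changed 4-fold, and 15 unchanged genes were called falsely. Those false calls are to be weighed against the genes called, not against all genes run. The adjustment is stricter where fewer genes pass, and 3 passed in the real data, so recovery there may be lower. Tests of correlation permuted all pairings of 8 hearts.

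The members and lists were chosen with earlier results of these data known. The text names the 10 members, Nbdy, up to 4 genes of smallest p of each further list (of the marker lists, those whose values bear on a statement), the most correlated gene of each member, and genes that overlap a member or flank the Argonaute cluster. Pseudogenes that share sequence with a member were named after the shared windows were counted. The alternatives changed the scaling (DESeq2's size factors, or the library totals), the tool (limma-voom from limma 3.58.1, DESeq2 1.42.0, robust edgeR) or another choice: no filter, 1 CPM in 4 libraries, no mitochondrial genes, 1 surrogate variable (sva 3.50.0), a trend on GC content and length taken out per library (natural splines, 4 degrees of freedom), an adjusted p of 0.10, and each library left out in turn. Lengths were also taken from the longest transcript.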

Additional observations from a re-analysis of the deposited data

Results flagged for a closer look

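Of 36 groups of 4 hearts examined for a single distant value, 3 held one, and about 1 in 20 is flagged by chance. The share of Ago1 in the length-scaled Argonaute level was 33.5% in KO replicate 8 and 38.0% to 38.7% in the other KO hearts. The share of Ago4 was 19.8% in WT replicate 2 and 23.0% to 23.3% in the other WT hearts. The share of Tnrc6a among its paralogs was 51.0% in KO replicate 8 and 53.0% to 53.4% in the other KO hearts. In KO replicate 8 the share of Ago2 was 27.1%, the highest of the 8 hearts.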

How the results depend on the processing

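No member passed in any of the 19 alternatives, and the members positive (7 to 9 of 10) and their median (0.038 to 0.159) kept their direction in all 18 alternative fits. Genes passing numbered 3 in the main analysis, 11 with DESeq2, 10 with no filter and 5 with 1 surrogate variable, and 2 to 6 with 1 library left out (2 without KO replicate 6, 5 without WT replicate 1 and 6 without WT replicate 4). With 1 library left out in turn Ago2 ran from -0.033 (without KO replicate 8) to 0.185, Tnrc6a from -0.061 (without WT replicate 4) to 0.105, Tnrc6b from -0.073 to 0.057 (without WT replicate 1; 0.024 without KO replicate 7), Dicer1 from -0.163 to 0.0092 and Drosha from -0.0058 to 0.144 (the last 2 turning without WT replicate 3), on the log2 scale. Tnrc6a was -0.0072 with library totals. The cause was not tested. With longest-transcript lengths the share of Tnrc6a was 60.4% and that of Tnrc6c 29.3%. Pairs of members passing were 0 with library totals and 0 without the 2 hearts farthest from the median. No paired analysis was possible because the labels record no pairing of WT with KO hearts, and the replicate numbers are not shared. Depth limits Ago4 most, at 95 to 184 counts per library.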
